A study of Mus musculus with 9 samples.

Results

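Pericyte and stellate cell markers were followed across 9 RNA sequencing libraries of mouse islets of Langerhans, the hormone-secreting cell clusters of the pancreas, with small blood vessels running through them. The genes were taken by symbol from the deposited count table: Rgs5, Notch3, Pdgfrb, Pdgfra, Cspg4, Acta2, Tagln, Myl9, Mylk and Des, 10 of 52459 genes listed. All 10 were in the table and passed the filter on low counts that left 16826 tested genes. The groups were db/db islets, homozygous for the Leprdb allele, db/+ islets, heterozygous for it, and wild type (WT) islets, with 3 libraries each, from mice 12 weeks old. The strain label is BKS.Cg-Dock7m +/+ Leprdb/J for every library, WT included, and the Dock7m status of each group is not stated. Leprdb is a mutant allele of the leptin receptor gene, and db/db mice become obese and diabetic. RNA was taken from whole isolated islets and depleted of ribosomal RNA, so the counts mix all cells of the preparation. Neither the sex of the mice nor any pooling of islets is given, and the labels do not say that each library came from other animals, so the p-values describe the spread between libraries.

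Pericytes are mural cells that lie along capillaries, steady the endothelium and constrict the vessel. Endothelial cells recruit them by secreting PDGF-B, which acts on the receptor encoded by Pdgfrb, and Notch3 is activated by ligands on the neighbouring endothelium and maintains the mural state. Pancreatic stellate cells are related mesenchymal cells that, when activated, express contractile proteins such as smooth muscle actin and deposit collagen. The contractile genes Acta2, Tagln, Myl9 and Mylk are classical targets of serum response factor and its partner myocardin, which bind the CArG box, a short motif of the form CC, then 6 bases of A or T, then GG. These genes are not private to pericytes, since smooth muscle of larger vessels and activated stellate cells or fibroblasts also use them.

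Counts were whole reads per gene and are given as CPM, counts scaled to a common library size after normalisation by the TMM method. The libraries held 8860024 to 11734886 counts in total, and 3 counts, the limit that a count of 0 allows, equal 0.238 to 0.412 CPM, covering counting error only. The islet hormone genes were abundant in every library. Ins2 lay at 45891 to 56269 CPM in db/db, 48618 to 51815 CPM in db/+ and 38230 to 59369 CPM in WT, while Gcg, the alpha cell hormone gene, was lower in db/db, at 7604 to 8963 CPM, against 15506 to 18650 CPM in db/+ and 9521 to 17572 CPM in WT (log2 fold change -0.81 ± 0.19 against WT, edgeR adjusted p = 0.00625). Ins1 averaged 25482 CPM for db/db, 36603 CPM for db/+ and 35360 CPM for WT and did not pass. It lay at 14437, 32683 and 29325 CPM in db/db 1, db/db 2 and db/db 3, 33791 to 39476 CPM in db/+ and 26257 to 40256 CPM in WT. The sum of the Y-linked genes lay at 176, 1.11 and 0.108 CPM in db/db, 373 to 417 CPM in db/+ and 219 to 343 CPM in WT. Xist lay at 308, 948 and 858 CPM in db/db, at most 0.506 CPM in db/+, and 565, 0.722 and 596 CPM in WT. Between db/db and db/+ the sex-linked signal thus differed with the genotype, and the 2 cannot be told apart there; db/db 1, WT 1 and WT 3 held both signals. The genes Gm42418 and Lars2 together took 17.9%, 13.3% and 0.0558% of counts in db/db 1, db/db 2 and db/db 3, at most 0.0237% in db/+ and 1.89% to 2.58% in WT; the number of markers called was the same without them. All db/db titles begin with H and all db/+ titles with G, while WT 1 and WT 2 begin with G and WT 3 with H; what the letter stands for is not stated.

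The promoters of Acta2 and Myl9 are shown because these contractile genes carry CArG-type sequences close to a listed start. That of Rgs5 is shown because it was by far the most abundant marker and has no such sequence in its window. A promoter entry was found for 8 of the 10 genes. None was found for Tagln and Pdgfrb, so these were not searched. The 250 bases before the start of each promoter entry (RefSeq, GRCm38.p6, the assembly of mm10) are written 5′ to 3′ on the gene's strand. That start is not always the outer end of the RefSeq gene span. The span of Acta2 reaches chr19:34255585, so most of its window, with its CArG-type boxes, lies inside the span. The span of Myl9 begins at chr2:156775408, inside its window but after its boxes. That of Rgs5 begins at chr1:169655501, right after its window. Capitals mark CArG boxes in which at most 1 of the 6 inner bases is G or C.

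Acta2 (chr19:34255374-34255623, minus strand): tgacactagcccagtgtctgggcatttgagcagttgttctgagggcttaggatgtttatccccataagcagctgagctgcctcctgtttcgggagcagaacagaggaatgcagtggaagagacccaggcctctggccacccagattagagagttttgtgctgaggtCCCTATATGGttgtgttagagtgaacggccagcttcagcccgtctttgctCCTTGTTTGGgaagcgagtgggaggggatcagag

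Myl9 (chr2:156775214-156775463, plus strand): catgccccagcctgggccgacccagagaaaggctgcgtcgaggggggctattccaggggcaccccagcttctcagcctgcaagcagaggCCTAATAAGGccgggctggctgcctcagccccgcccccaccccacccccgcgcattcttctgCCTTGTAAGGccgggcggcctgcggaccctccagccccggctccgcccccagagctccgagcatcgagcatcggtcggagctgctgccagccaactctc

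Rgs5 (chr1:169655251-169655500, plus strand): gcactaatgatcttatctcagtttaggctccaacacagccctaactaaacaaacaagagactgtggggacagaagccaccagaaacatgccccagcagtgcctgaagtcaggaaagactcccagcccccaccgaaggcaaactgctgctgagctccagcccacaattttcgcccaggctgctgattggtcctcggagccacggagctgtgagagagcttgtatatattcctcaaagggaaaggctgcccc

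Myl9 held a CArG box without deviation, CCTAATAAGG, whose first base lies 161 bases before the start of the promoter entry. It also held a CArG box with 1 deviation, CCTTGTAAGG, at 99 bases. Acta2 held 2 boxes with 1 deviation each, CCCTATATGG at 84 bases and CCTTGTTTGG at 34 bases. The undeviated box was present in 1.47% of 32851 promoter windows of the same length, and a box with at most 1 deviation in 8.59%. Acta2 and Myl9 are shown for these boxes, so their matches do not test those shares. Of the 8 genes with an entry, 1 held an undeviated box and 2 a box with at most 1 deviation. Mylk and Des held neither. The motif is its own reverse complement in form, so each match covers both strands. The hexamer TGGGAA, the core bound by the Notch effector RBPJ, was searched on both strands and occurred in Acta2 alone among the 8 genes, 27 bases before the start and overlapping the second CArG-type box by 3 letters, against 21.6% of all promoter windows. The hexamer CATTCC, bound by TEAD factors, occurred in Acta2 and Mylk and in 12.6% of windows. The Mylk window also lies inside the RefSeq gene span, which begins at chr16:34745199, and Mylk is known to have further internal promoters. These matches describe letters only.

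The receptor and regulator genes of mural cells were higher in db/db islets. Rgs5, which encodes a brake on G protein signalling and is a leading pericyte marker, had 501, 397 and 414 CPM in db/db, 190, 164 and 160 CPM in db/+, against 197, 170 and 160 CPM in WT. Every db/db library lay above every other library, and db/+ and WT overlapped. The log2 fold change of Rgs5 was 1.31 ± 0.11 (SE) for db/db against WT (edgeR adjusted p = 8.36e-07) and 1.35 ± 0.11 for db/db against db/+ (edgeR adjusted p = 6.59e-07). Notch3, the mural Notch receptor, had 62.6, 37.9 and 51.9 CPM in db/db, 16.4, 15.2 and 12.4 CPM in db/+, against 22.3, 21.5 and 21.6 CPM in WT. The 3 groups did not overlap, with db/db on top and db/+ lowest. Notch3 rose by a log2 fold change of 1.22 ± 0.16 against WT (edgeR adjusted p = 7.38e-05) and of 1.79 ± 0.16 against db/+ (edgeR adjusted p = 4.21e-06).

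Pdgfrb, the receptor through which PDGF-B recruits pericytes, had 69.2, 31.7 and 35.9 CPM in db/db, 21.1, 17.8 and 16.6 CPM in db/+, against 27.9, 20.7 and 23.8 CPM in WT. The db/db libraries lay above the others, db/db 1 farthest. The log2 fold change was 0.91 ± 0.29 against WT (edgeR adjusted p = 0.0364) and 1.29 ± 0.29 against db/+ (edgeR adjusted p = 0.00922). Against WT the call of Pdgfrb ended when any db/+ or any WT library was left out, with adjusted p from 0.00961 to 0.106 over the 9 libraries, and without db/db 1 the log2 fold change was 0.48 (edgeR adjusted p = 0.0125). Pdgfra, the related receptor that marks fibroblasts and other mesenchymal cells more than pericytes, was scarce, with 156, 14 and 40 counts in db/db, 29, 6 and 6 in db/+, and 24, 8 and 3 in WT. These counts correspond to 21.4, 1.73 and 4.31 CPM in db/db, 2.34, 0.506 and 0.489 CPM in db/+, against 1.90, 0.722 and 0.305 CPM in WT. Library db/db 1 stood far above the rest and db/db 2 within the WT range, and Pdgfra did not pass the test, with log2 fold changes of 3.13 ± 1.16 (edgeR adjusted p = 0.0696) against WT and 3.0 ± 1.13 (edgeR adjusted p = 0.077) against db/+. Against WT and db/+ it passed under DESeq2 (adjusted p = 0.0149 and 0.022), without robust dispersions (edgeR adjusted p = 0.0154 and 0.0177), with the Y-linked covariate (edgeR adjusted p = 0.00879 and 0.00963) and without db/db 2 (edgeR adjusted p = 0.0293 and 0.0316), and without db/db 1 its log2 fold change against WT was 1.58 (edgeR adjusted p = 0.158).

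Cspg4, which encodes the NG2 proteoglycan of the pericyte surface, had 18.9, 13.8 and 19.9 CPM in db/db, 9.78, 8.77 and 9.87 CPM in db/+, against 14.5, 10.6 and 15.5 CPM in WT. The db/db libraries stood above db/+ but overlapped WT. Cspg4 was higher against db/+ (log2 fold change 0.89 ± 0.17, edgeR adjusted p = 0.00115) and did not pass against WT, where the log2 fold change was 0.38 ± 0.17 with a 95% interval of 0.01 to 0.74 (edgeR adjusted p = 0.0909). Leaving out db/db 2 made the comparison of Cspg4 with WT pass (edgeR adjusted p = 0.0282). In CPM, Cspg4 and Rgs5 thus moved by different amounts, Cspg4 standing at 0.0346 to 0.0482 of the Rgs5 level in db/db, 0.0516 to 0.0617 in db/+ and 0.0622 to 0.0969 in WT, with no overlap between db/db and either other group.

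**Figure D1:**
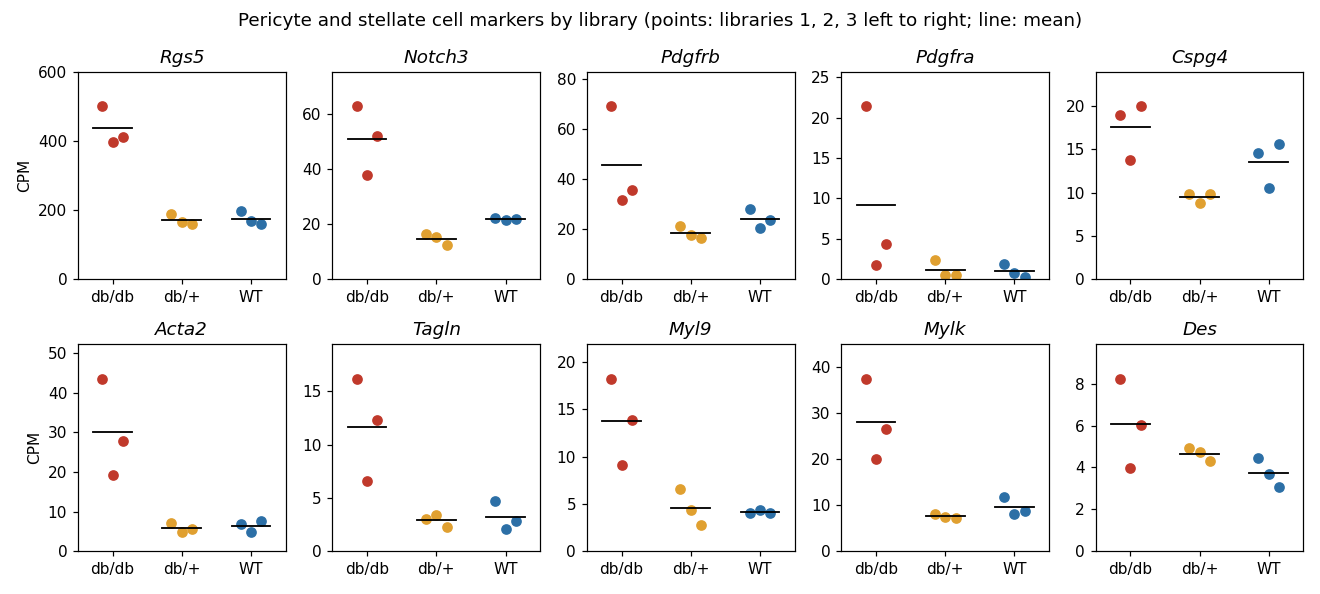
CPM of each marker by library, with db/db, db/+ and WT from left to right, a point for each of the 3 libraries of a group and a line at the mean. The db/db points lie above all others for Rgs5, Notch3, Pdgfrb, Acta2, Tagln, Myl9 and Mylk, and db/db 2 is the lowest db/db point for all 10 genes.

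Against WT, the 4 contractile genes Acta2, Tagln, Myl9 and Mylk had the highest fold changes among the markers that passed. Acta2, smooth muscle alpha-actin, had 43.5, 19.2 and 27.8 CPM in db/db, 7.03, 4.98 and 5.63 CPM in db/+, against 6.90, 4.79 and 7.62 CPM in WT. Every db/db library lay above every library of the other groups, which overlapped each other. Its log2 fold change was 2.22 ± 0.30 against WT (edgeR adjusted p = 2.61e-04) and 2.35 ± 0.30 against db/+ (edgeR adjusted p = 1.88e-04). Tagln, the actin-binding protein transgelin, had 16.2, 6.57 and 12.3 CPM in db/db, 2.99, 3.46 and 2.28 CPM in db/+, against 4.68, 2.08 and 2.84 CPM in WT. The groups db/+ and WT overlapped below db/db, and Tagln rose by a log2 fold change of 1.85 ± 0.35 against WT (edgeR adjusted p = 0.0015) and 2.0 ± 0.35 against db/+ (edgeR adjusted p = 9.63e-04).

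Myl9, a regulatory light chain of smooth muscle myosin, had 18.3, 9.17 and 13.9 CPM in db/db, 6.55, 4.39 and 2.77 CPM in db/+, against 4.05, 4.33 and 4.06 CPM in WT. The log2 fold change of Myl9 was 1.72 ± 0.30 against WT (edgeR adjusted p = 7.12e-04) and 1.58 ± 0.29 against db/+ (edgeR adjusted p = 0.00119), again with every db/db library on top. Myl12a and Myl12b, close relatives of Myl9 used by nonmuscle cells, did not pass against WT. Myl12a averaged 31.9 ± 7.23 CPM for db/db against 29.8 ± 0.835 CPM for WT, and Myl12b 45.0 ± 5.94 CPM for db/db against 39.5 ± 2.78 CPM for WT (SD, n = 3 each). Mylk, the kinase that phosphorylates the regulatory light chain and starts contraction, had 37.5, 19.9 and 26.5 CPM in db/db, 8.17, 7.42 and 7.18 CPM in db/+, against 11.9, 8.04 and 8.74 CPM in WT. Mylk rose by 1.54 ± 0.22 against WT (edgeR adjusted p = 1.55e-04) and 1.88 ± 0.22 against db/+ (edgeR adjusted p = 3.84e-05) on the log2 scale, without overlap.

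Des, the intermediate filament protein desmin, differed least among the contractile and cytoskeletal markers in the comparison with db/+. It had 8.23, 3.96 and 6.03 CPM in db/db, 4.93, 4.72 and 4.32 CPM in db/+, against 4.44, 3.70 and 3.05 CPM in WT. Library db/db 2 lay below every db/+ library and within the WT range. Des passed narrowly against WT (log2 fold change 0.69 ± 0.26, edgeR adjusted p = 0.0471) and did not pass against db/+ (0.38 ± 0.25, 95% interval -0.17 to 0.92, edgeR adjusted p = 0.259). The call against WT ended without db/db 1, db/db 3, any db/+ library, WT 2 or WT 3, with adjusted p from 0.0104 to 0.208 over the 9 libraries, under the DESeq2 test (adjusted p = 0.0648), under limma-voom (adjusted p = 0.0747) and on library totals (adjusted p = 0.166). Relative to Rgs5, Des was lower in db/db, at 0.00999 to 0.0164 of the Rgs5 level, against 0.0260 to 0.0287 in db/+ and 0.0190 to 0.0225 in WT.

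Of the 10 markers, 8 rose in db/db against WT and 2 did not pass, where 21.8% of all tested genes were called higher and 19.9% lower. The median log2 fold change of the markers was 1.42, beside 0.01 over all tested genes. Every db/db library exceeded every WT library for 7 of the 10 markers, against 26.2% of all tested genes. In db/db against db/+, again 8 rose and 2 did not pass, with 20.6% of tested genes called higher and 19.7% lower, and the median log2 fold change was 1.69, beside 0.01 over all genes. The groups did not overlap for 8 of the 10 in that comparison, against 26.2% of all tested genes. Both comparisons share the db/db libraries. Within db/db, 9 of the 10 markers were highest in db/db 1, and Cspg4 was highest in db/db 3, while all 10 were lowest in db/db 2; db/db 1 exceeded the mean of db/db 2 and db/db 3 by factors from 1.12 for Cspg4 to 2.05 for Pdgfrb, and by 7.08 for Pdgfra. The share of all tested genes with this order among the db/db libraries was not counted. Without db/db 1, 7 markers rose against WT and 8 against db/+, where 20.2% and 18.9% of all tested genes were called higher. On library totals alone, which shift the median of all genes by -0.22 in db/db against WT, 6 rose against WT and 8 against db/+. In those fits 12.9% and 12.0% of all tested genes were called higher.

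**Figure D2:**
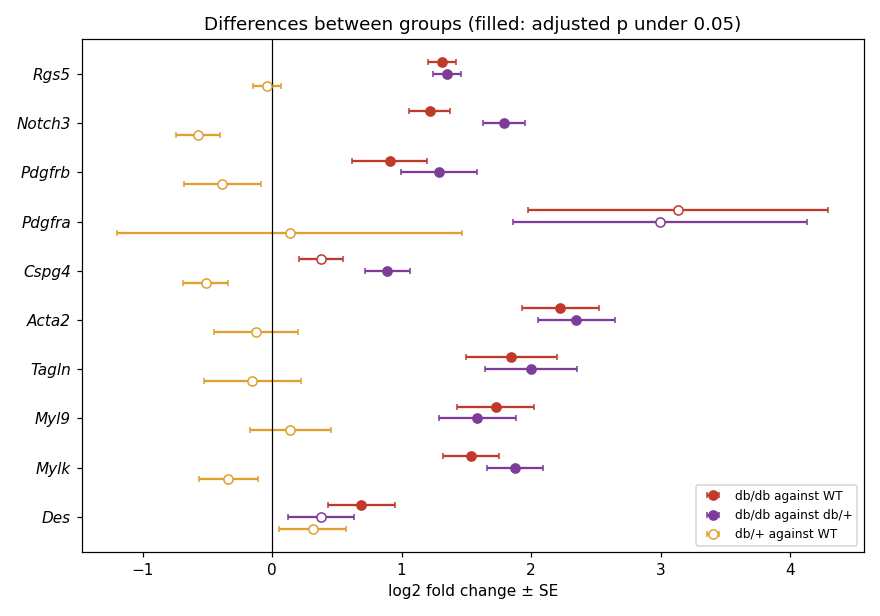
Log2 fold change with its SE for each marker in the 3 comparisons, filled where the adjusted p was under 0.05. Acta2 has the largest filled values, 2.22 against WT and 2.35 against db/+, and the db/+ against WT values are all unfilled.

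In db/+ against WT, 0 of the 10 markers passed edgeR's test in either direction, where 0.606% of all tested genes were called higher and 0.820% lower. At an unadjusted p under 0.05 there were 2 lower markers, Notch3 (log2 fold change -0.57 ± 0.17, edgeR adjusted p = 0.119) and Cspg4 (-0.51 ± 0.17, edgeR adjusted p = 0.164). For both genes every db/+ library lay below every WT library, as was the case for 10.4% of all tested genes. The DESeq2 test called 1 of the 10 lower, Notch3 (adjusted p = 0.0272), and limma-voom called 0. Without db/db 1, Notch3 passed in edgeR as well (adjusted p = 0.0329, with a range of 0.0329 to 0.329 over the 9 libraries left out). Rgs5 was nearly level between db/+ and WT, with a log2 fold change of -0.04 and a 95% interval of -0.27 to 0.19.

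Per transcript length, Rgs5 led in every group. Levels between genes are compared here as CPM per kilobase of the longest protein-coding transcript. Rgs5 stood at 107 ± 13.6 CPM per kb in db/db, 41.8 ± 3.89 in db/+ and 42.9 ± 4.66 in WT (SD, n = 3 each). In WT the next were Pdgfrb at 4.45 ± 0.67, Myl9 at 3.68 ± 0.14, Acta2 at 3.61 ± 0.83 and Notch3 at 2.71 ± 0.05 CPM per kb, then Tagln, Cspg4, Des and Mylk between 1.22 and 2.02, with Pdgfra last at 0.149 ± 0.126. In WT, each neighbouring pair from Pdgfrb down to Mylk overlapped between libraries, so the order of neighbours is within the spread. Genes further apart did not all overlap, since Pdgfrb and Myl9 each lay wholly above Notch3 and the genes after it. Rgs5 lay above and Pdgfra below all others without overlap. In db/+ the order behind Rgs5 was Myl9 at 4.05 ± 1.68, Pdgfrb at 3.41 ± 0.427, Acta2 at 3.30 ± 0.59, Tagln at 1.84 ± 0.373, Notch3 at 1.82 ± 0.256 and Des at 1.54 ± 0.102 CPM per kb, then Cspg4 at 1.18 and Mylk at 0.970, and again Pdgfra last at 0.169. The db/+ libraries of Myl9, Pdgfrb and Acta2 overlapped, as did those of Tagln, Notch3 and Des, and the other neighbours did not. In db/db the order behind Rgs5 was Acta2 at 16.9 ± 6.92, Myl9 at 12.2 ± 4.03, Pdgfrb at 8.41 ± 3.78, Tagln at 7.36 ± 3.05 and Notch3 at 6.32 ± 1.54 CPM per kb, followed by Mylk at 3.58, Cspg4 at 2.18 and Des at 2.01. The libraries of each neighbouring pair from Acta2 to Mylk overlapped, Mylk and Cspg4 did not, and Des overlapped both its neighbours. Pdgfra remained the scarcest marker by its mean in db/db, at 1.39 ± 1.63 CPM per kb.

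**Figure D3:**
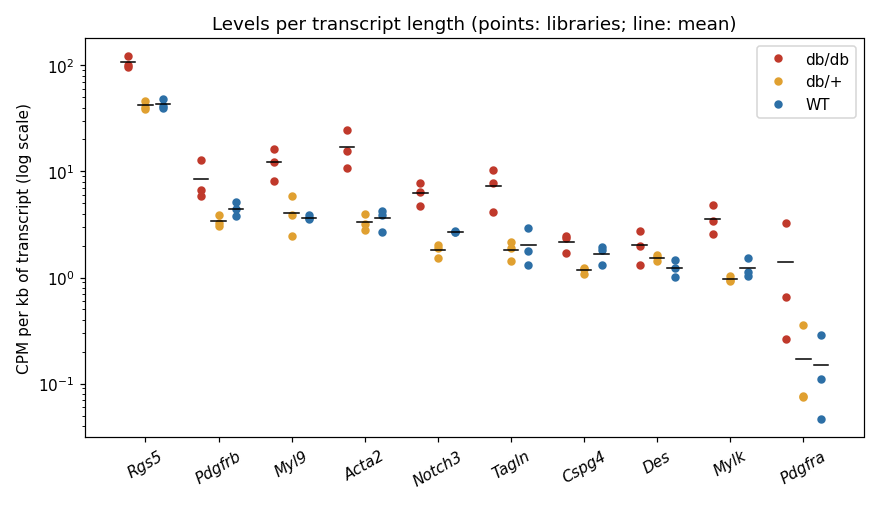
Levels as CPM per kilobase of transcript on a log axis, genes ordered by their WT mean, with db/db, db/+ and WT from left to right and a line at each mean. Rgs5 lies above all other markers in every group, at a mean of 107 in db/db, 41.8 in db/+ and 42.9 in WT.

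Ratios to Rgs5 within a library show which markers changed by unequal amounts. Acta2 stood at 0.0868, 0.0484 and 0.0672 of the Rgs5 CPM in db/db, 0.0371, 0.0303 and 0.0352 in db/+, and 0.0350, 0.0282 and 0.0475 in WT. The db/db libraries were highest, db/db 2 by a narrow margin over WT 3. Acta2, Tagln, Myl9 and Mylk summed to 0.230, 0.138 and 0.195 of the Rgs5 CPM in db/db, 0.112 to 0.131 in db/+ and 0.113 to 0.145 in WT, so db/db 2 lay within the WT range. For Notch3 the ratio to Rgs5 was 0.0955 to 0.126 in db/db, 0.0775 to 0.0924 in db/+ and 0.113 to 0.135 in WT, so db/db and WT overlapped. For Pdgfrb it was 0.0799 to 0.138 in db/db, 0.104 to 0.111 in db/+ and 0.122 to 0.148 in WT, and all groups overlapped with db/db.

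Over the 9 libraries, the log2 CPM profiles of Acta2 and Mylk, scaled to mean 0 and SD 1, were the most alike pair of the 10, with a root mean square difference of 0.193 SD, and those of Cspg4 and Des the least alike, at 1.03 SD. Among 11585 other genes with a mean of at least 5 CPM, the profiles nearest to Rgs5 were Rapgef5, Inpp4b, Ick, Oat and Stab1, at 0.0939 to 0.117 SD. Those nearest to Acta2 were Pld1, Sdc1, Adamts9, Kank2 and Sgms1, at 0.112 to 0.155 SD. These profiles share libraries, normalisation and the large difference between db/db and the other groups.

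Other genes known from pericytes were mostly higher too. Beside this and the later lists, 21.8% of all tested genes rose and 19.9% fell against WT. Against db/+ it was 20.6% and 19.7%. Of 23 tested genes of a pericyte list that excludes the 10 markers, 14 rose in db/db against WT, with a median log2 fold change of 1.05 against 0.01 over all genes, and 13 rose against db/+; without db/db 1 it was 12 in each comparison. The smallest adjusted p values belonged to Anpep, aminopeptidase N (1.64 ± 0.16, edgeR adjusted p = 1.22e-05), Gucy1b3, a subunit of the nitric oxide receptor guanylate cyclase (1.37 ± 0.20, edgeR adjusted p = 1.70e-04), and Itga7, a laminin receptor subunit (1.05 ± 0.17, edgeR adjusted p = 2.77e-04). Some genes that mark capillary pericytes in other organs did not pass. Abcc9, a potassium channel regulator, had 13.9, 7.93 and 8.84 CPM in db/db, 11.1, 7.34 and 7.50 CPM in db/+, against 13.9, 10.2 and 7.31 CPM in WT. All groups of Abcc9 overlapped (log2 fold change -0.06 ± 0.27 against WT, edgeR adjusted p = 0.89). Its channel partner Kcnj8 (0.65 ± 0.42, edgeR adjusted p = 0.235) and Higd1b (0.60 ± 0.35, edgeR adjusted p = 0.189) were under 2 CPM in every group mean and did not pass, and Zic1 and Tbx18 had 0 counts in every library. Rgs4, a relative of Rgs5 that is also expressed in endocrine cells, rose against WT (1.11 ± 0.23, edgeR adjusted p = 0.00567), with 173, 246 and 232 CPM in db/db, 184, 129 and 114 CPM in db/+, against 83.3, 122 and 96.1 CPM in WT. The db/db and db/+ libraries of Rgs4 overlapped, and within db/db it was lowest in db/db 1, where Rgs5 was highest.

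Smooth muscle contractile genes beyond the 10 markers rose in 16 of 20 tested cases against WT (median log2 fold change 1.01) and in 18 of 20 against db/+, and without db/db 1 in 13 and 15. Csrp1, an actin cytoskeleton protein (1.45 ± 0.13, edgeR adjusted p = 3.17e-06), Actn1, an actin crosslinker (0.74 ± 0.07, edgeR adjusted p = 3.99e-06), and Tpm1, a tropomyosin (0.96 ± 0.10, edgeR adjusted p = 5.63e-06), had the smallest adjusted p. Myh11, the heavy chain of smooth muscle myosin, had 69.2, 41.2 and 50.9 CPM in db/db, 17.1, 13.8 and 11.5 CPM in db/+, against 19.9, 18.2 and 18.4 CPM in WT. Its db/db libraries all stood above the rest (log2 fold change 1.51 ± 0.19 against WT, edgeR adjusted p = 8.16e-05). Calponin, encoded by Cnn1 and typical of mature smooth muscle, had 4, 0 and 0 counts in db/db, 0 in each db/+ library, and 1, 0 and 0 counts in WT. Enteric smooth muscle actin, Actg2, had at most 3 counts in any library. Acta1, skeletal muscle actin and a close relative of Acta2, rose against WT (1.48 ± 0.34, edgeR adjusted p = 0.00345). The myocardin gene Myocd was scarce but rose against WT (1.31 ± 0.44, edgeR adjusted p = 0.0281), with 10, 12 and 19 counts in db/db, 4, 3 and 6 in db/+, and 6, 12 and 4 in WT.

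In a list of serum response factor and myocardin factors and targets, 12 of 23 tested genes rose and 3 fell against WT. Against db/+ 12 rose and 7 fell, where 20.6% of all tested genes rose and 19.7% fell. Some genes of this list are also in the smooth muscle list. The risen genes with the smallest adjusted p were Csrp1, Tpm1 and Tpm4, another tropomyosin (0.57 ± 0.08, edgeR adjusted p = 9.29e-05). The fallen genes were Actg1 (-1.96 ± 0.25, edgeR adjusted p = 3.20e-04) and Actb (-0.48 ± 0.11, edgeR adjusted p = 0.00386), the cytoplasmic actins, and Egr1, an immediate early factor (-0.62 ± 0.12, edgeR adjusted p = 0.00115). Actin genes have near-identical copies, so their counts can be shared. Srf itself averaged 69.7 ± 12.3 CPM for db/db, 122 ± 18.9 CPM for db/+ and 75.3 ± 10.7 CPM for WT (SD, n = 3 each), did not pass against WT and fell against db/+ (-0.81 on the log2 scale, edgeR adjusted p = 0.00235). In a list of myosin phosphorylation genes, 7 of 18 rose and 3 fell against WT, where 21.8% of all tested genes rose and 19.9% fell. Against db/+ 4 rose and 1 fell, beside 20.6% and 19.7%. Its risen genes with the smallest adjusted p were Myh11, the nonmuscle heavy chain Myh9 (0.46 ± 0.08) and the phosphatase subunit Ppp1r12c (0.39 ± 0.08), and the fallen ones the essential light chain Myl6 (-0.55 ± 0.08), the nonmuscle heavy chain Myh10 (-0.39 ± 0.09) and the phosphatase catalytic subunit Ppp1cb (-0.19 ± 0.07).

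The ligands of the PDGF receptors did not move as a group. Pdgfb, the endothelial ligand of the Pdgfrb product, averaged 12.9 ± 2.44 CPM for db/db against 10.7 ± 0.252 CPM for WT (SD, n = 3 each, log2 fold change 0.28 ± 0.15, edgeR adjusted p = 0.158). Pdgfa (0.30 ± 0.12, edgeR adjusted p = 0.0578) and Pdgfd (0.69 ± 0.39, edgeR adjusted p = 0.192) did not pass either. Pdgfc, a ligand of the Pdgfra product, was scarce and passed against WT (1.60 ± 0.57, edgeR adjusted p = 0.0366) but not against db/+ (1.43 ± 0.55, edgeR adjusted p = 0.0544), with 3.84, 1.49 and 1.72 CPM in db/db, 0.647, 1.18 and 0.734 CPM in db/+, against 1.51, 0.361 and 0.305 CPM in WT. The PDGF pathway list includes Kdr and Flt1, receptor genes of endothelial cells that are also in the endothelial list. Of its 17 tested genes, 2 rose and 2 fell against WT, where 21.8% of all tested genes rose and 19.9% fell. Against db/+ 2 rose (1 without db/db 1) and 1 fell, beside 20.6% and 19.7%. The kinase Src rose (0.57 ± 0.10, edgeR adjusted p = 5.42e-04), and Plcg1, a phospholipase (-0.63 ± 0.07, edgeR adjusted p = 1.40e-05), and Stat3, a transcription factor (-0.40 ± 0.13, edgeR adjusted p = 0.0285), fell against WT.

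Around Notch3, the ligand Jag1 and several Notch targets were higher. Jag1 had 45.0, 22.3 and 27.5 CPM in db/db, 15.8, 12.7 and 14.7 CPM in db/+, against 13.96, 12.2 and 10.4 CPM in WT. Every db/db library exceeded the others (log2 fold change 1.36 ± 0.24 against WT, edgeR adjusted p = 0.00112). The targets Hes1 (1.04 ± 0.21, edgeR adjusted p = 0.00229), Hey1 (1.12 ± 0.27, edgeR adjusted p = 0.00488) and Heyl (1.64 ± 0.52, edgeR adjusted p = 0.0289) rose against WT and also against db/+ (edgeR adjusted p = 0.0226, 0.00665 and 0.0118). Heyl, a target in mural cells, had 15.9, 4.95 and 4.96 CPM in db/db, 3.07, 1.86 and 1.14 CPM in db/+, against 3.49, 1.99 and 2.64 CPM in WT, highest in db/db 1. Hey2 (-0.59 ± 0.42, edgeR adjusted p = 0.283) and the ligands Jag2 (0.00 ± 0.10, edgeR adjusted p = 0.981), Dll1 (-0.36 ± 0.20, edgeR adjusted p = 0.172) and Dll4 (-0.31 ± 0.12, edgeR adjusted p = 0.0518) did not pass. Over the Notch list without Notch3, 9 of 27 tested genes rose and 3 fell against WT, with a median log2 fold change of 0.07. Of all tested genes, 21.8% rose and 19.9% fell there. Against db/+ 11 rose and 1 fell, beside 20.6% and 19.7% of all tested genes. The smallest adjusted p among the risen belonged to Ncstn, the gamma-secretase subunit nicastrin (0.69 ± 0.07), and Dtx4 (1.18 ± 0.21), and the fallen genes were the coactivator Maml3 (-0.48 ± 0.10), the receptor Notch1 (-0.39 ± 0.10) and the glycosyltransferase Mfng (-0.76 ± 0.23).

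**Figure D4:**
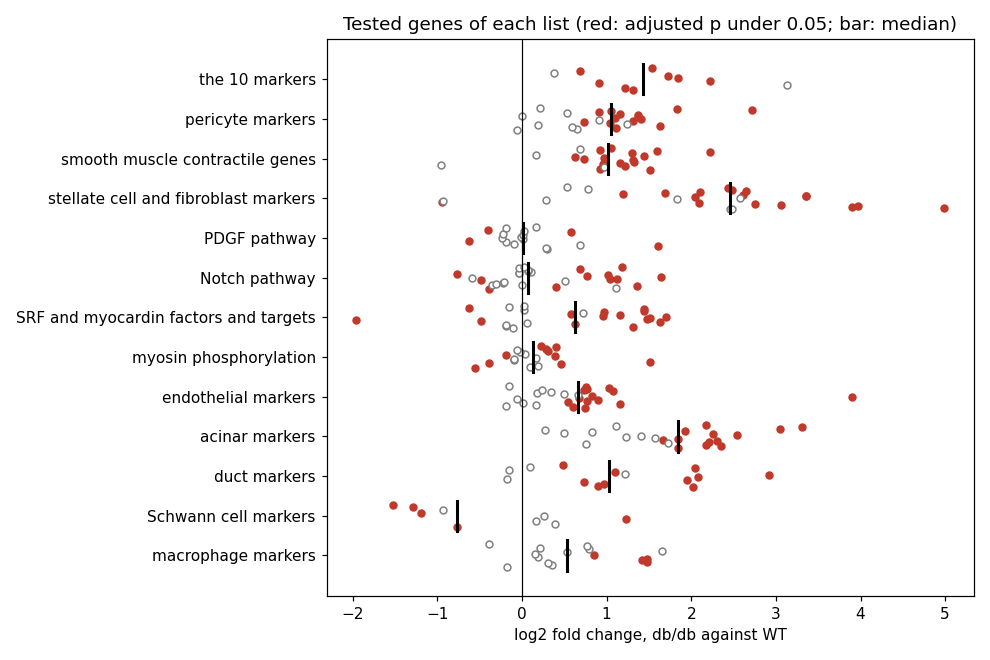
Log2 fold change in db/db against WT of every tested gene of the 10 markers and of each list, red where the adjusted p was under 0.05, with a bar at the list's median. The bars lie at 1.42 for the 10 markers, 1.05 for pericyte, 1.01 for smooth muscle and 2.46 for stellate cell and fibroblast genes, and near 0 for the PDGF and Notch pathway lists.

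Stellate cell and fibroblast genes showed higher fold changes than the 10 markers but wide spread between db/db libraries. Of 25 tested genes, 16 rose and 1 fell against WT, with a median log2 fold change of 2.46, and 15 rose against db/+ (10 without db/db 1). The fibrillar collagen gene Col1a1 had 167, 32.7 and 118 CPM in db/db, 6.71, 1.69 and 2.12 CPM in db/+, against 5.396, 2.98 and 1.22 CPM in WT (log2 fold change 4.99 ± 0.86 against WT, edgeR adjusted p = 0.00458). Even the lowest db/db library, db/db 2, lay far above both other groups. Col1a2, which encodes the partner chain of the same collagen, also rose (3.90 ± 0.67, edgeR adjusted p = 0.00455), and Reln fell (-0.94 ± 0.28, edgeR adjusted p = 0.0161). The stellate cell gene Lrat, which stores retinol, had 5, 0 and 1 counts in db/db, 1, 0 and 1 in db/+, and 1, 11 and 0 in WT. Gfap, another marker of quiescent stellate cells, had at most 5 counts in a db/db library, 15 in a db/+ library and 3 in a WT library. With Lrat and Gfap near 0 counts in most libraries, the stellate part of the name rests on genes that pericytes, smooth muscle or fibroblasts share, Des included.

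Markers of some other cells in the preparation were also higher in db/db, and beyond the values given here their part in the result was not tested. Endothelial markers rose in 14 of 24 tested cases against WT (median log2 fold change 0.66), with Cd93 (0.73 ± 0.10), Egfl7 (0.90 ± 0.13) and Plvap (0.76 ± 0.12) at the smallest adjusted p, and in 16 of 24 against db/+. Summed over 25 genes, they lay at 1549, 1120 and 1121 CPM in db/db, 934, 851 and 804 CPM in db/+, against 958, 883 and 916 CPM in WT. The summed 10 markers lay at 797, 541 and 612 CPM in db/db, 269, 232 and 222 CPM in db/+, against 296, 246 and 248 CPM in WT. Per unit of endothelial CPM the 10 markers stood at 0.514, 0.483 and 0.546 in db/db, 0.288, 0.272 and 0.275 in db/+, and 0.309, 0.279 and 0.271 in WT. The db/db ratios lay above all others and db/+ and WT overlapped; Rgs5 made up 62.9% to 73.4% of the summed markers in db/db, 70.5% to 72.2% in db/+ and 64.7% to 68.98% in WT. In bulk tissue, more cells of a type and more RNA per cell cannot be told apart.

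**Figure D5:**
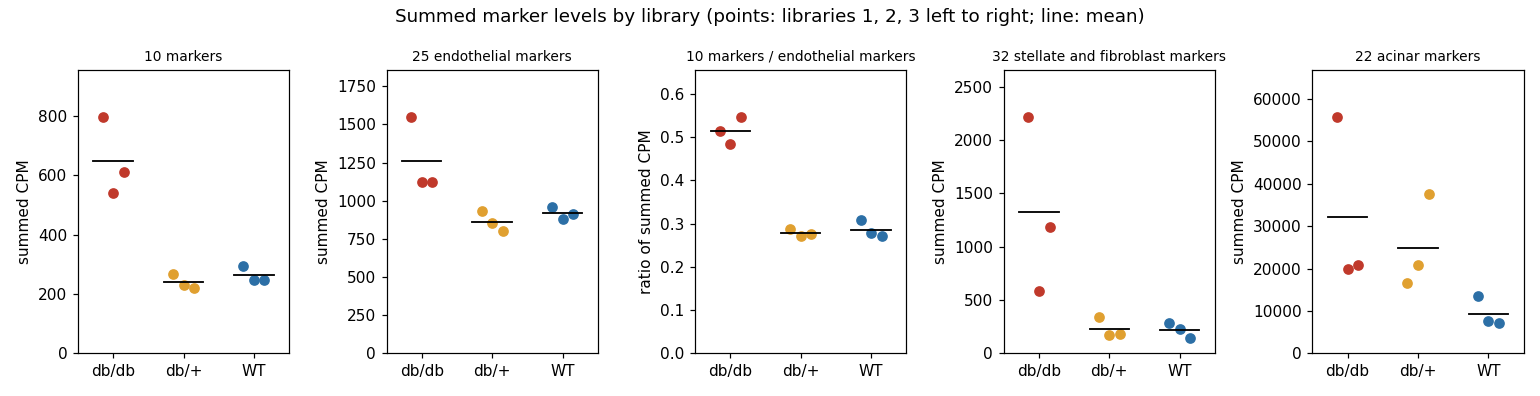
Summed CPM by library of the 10 markers, endothelial, stellate and fibroblast, and acinar markers, and the ratio of the 10 markers to the endothelial markers, with db/db, db/+ and WT from left to right and a line at the mean. The ratio is 0.483 to 0.546 in db/db, 0.272 to 0.288 in db/+ and 0.271 to 0.309 in WT.

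With the mean log2 CPM of the endothelial markers as a covariate, 2 of the 10 markers were higher against WT, Rgs5 (log2 fold change 0.91, edgeR adjusted p = 4.75e-04) and Acta2 (1.15, edgeR adjusted p = 0.0167), and 4 against db/+, Rgs5, Notch3, Acta2 and Mylk. Over all tested genes, 9.18% were called higher against WT and 7.74% against db/+ in that fit, so calls were fewer across the whole table. The endothelial mean lay at 4.75 to 5.33 in db/db, 4.08 to 4.44 in db/+ and 4.25 to 4.41 in WT, so it separates db/db from the other groups, and the share of endothelial content in the calls lost with it cannot be told apart from that of the genotype. Acinar enzyme genes, from the exocrine tissue around islets, rose in 13 of 22 cases against WT (6 without db/db 1), Rbpjl (3.05 ± 0.56) and Sycn (3.30 ± 0.75) among them, and in 1 of 22 against db/+, where 1 fell. Their sum was 20003 to 55766 CPM in db/db, highest in db/db 1, 16496 to 37641 CPM in db/+ and 7141 to 13477 CPM in WT. The acinar sums of db/+ and db/db overlapped, and the part of acinar content in the marker values was not tested. When the acinar mean log2 CPM was a covariate, 5 of the 10 markers were higher against WT, Rgs5, Notch3, Acta2, Myl9 and Mylk, and 8 against db/+, where 11.6% and 19.8% of all tested genes were called higher. That mean lay at 8.75 to 10.07 in db/db, 8.31 to 9.49 in db/+ and 7.25 to 8.04 in WT. It thus separates db/db from WT, and its part in the calls lost against WT cannot be told apart from that of the genotype. Duct markers rose in 10 of 14 cases against WT, led by Cldn4 (1.10 ± 0.09), Krt7 (0.90 ± 0.09) and Epcam (0.49 ± 0.07), and in 9 against db/+, where 1 fell. Their sum was 1347 to 1863 CPM in db/db, 778 to 930 CPM in db/+ and 628 to 734 CPM in WT. Macrophage markers rose in 4 of 15 cases against WT, a share near the 21.8% of all tested genes, with C1qa (0.85 ± 0.11), Cd14 (1.48 ± 0.30) and Itgam (1.48 ± 0.41) leading, and in 7 against db/+, at summed levels of 175 to 266 CPM in db/db, 105 to 127 CPM in db/+ and 104 to 134 CPM in WT. Of 9 tested Schwann cell markers, 1 rose and 4 fell in each comparison, where 19.9% and 19.7% of all tested genes fell. Erbb3 rose (1.23 ± 0.18), and L1cam (-1.52 ± 0.37) and Gfra3 (-1.19 ± 0.31) fell, while the summed Schwann list overlapped between groups, at 120 to 133 CPM in db/db, 121 to 138 CPM in db/+ and 117 to 140 CPM in WT.

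With the title letter as a term, 6 of the 10 markers were higher against WT, and 3 against db/+, Rgs5 (log2 fold change 1.55, edgeR adjusted p = 4.17e-04), Notch3 (1.81, edgeR adjusted p = 0.00531) and Mylk (2.07, edgeR adjusted p = 0.0125). Of all tested genes, 12.9% were called higher against WT and 5.98% against db/+ in that fit. There the letter is estimated from the WT libraries alone, since db/db and db/+ have 1 letter each. WT 3, the WT library that shares its letter with db/db, lay below every db/db library for 9 of the 10 markers. The exception was Cspg4, at 15.5 CPM in WT 3 and 13.8 CPM in db/db 2. That count rests on 1 library, and the share of all tested genes with the same order was not counted. It cannot tell the letter apart from the genotype. With the summed Y-linked counts as a covariate, 9 of the 10 were higher against WT and 9 against db/+, where 16.1% and 14.9% of all tested genes were. The Y-linked sum was at most 176 CPM in db/db, in db/db 1, and at least 219 CPM in WT and 373 CPM in db/+. It thus separates db/db from the other groups, and its part cannot be told apart from that of the genotype.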

How the data were processed

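RNA of islets was measured in 9 libraries by RNA sequencing after ribosomal RNA removal, per the labels' protocols. The submitters' processing notes name bcl2fastq 2.20.0.422, TopHat2 2.0.14 and the build mm10. The authors deposited raw read counts per gene symbol in 1 table, without normalisation. Not given in the sources used here: the counting program, its annotation and its use of strand; genes that overlap or have near-identical copies may therefore share counts. A column that matches no sample (1 in all) was not used. Libraries were grouped by the genotype label, and replicate numbers follow sample order.

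Genes were kept by filterByExpr, leaving 16826 of 52459. TMM normalisation and edgeR 4.0.16 in R 4.3.3 were used, with a term for each group, all 9 libraries in the fit, robust dispersions (common dispersion as a coefficient of variation, 0.129, on 6 residual degrees of freedom) and the two-sided quasi-likelihood F-test, adjusted by Benjamini-Hochberg over all tested genes at a threshold of 0.05. SE were derived from the fold change and the F statistic. The fit was tested on simulated data. Alternatives were DESeq2 size factors, upper-quartile factors, library totals, other low-count filters, DESeq2 1.42.0, limma-voom (limma 3.58.1), dispersions without robust estimation, 2 groups only, a test against a 1.5-fold change, covariates, removal of Gm42418 and Lars2, and each library left out; the list counts without db/db 1 were chosen after seeing the data. Transcript lengths come from GENCODE vM1 (built on NCBIM37; no coordinates taken from it), and promoter sequences from RefSeq (GRCm38.p6). Figures were drawn with matplotlib 3.10.9.

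The 10 markers, the gene lists and the tests were chosen with earlier results of these data known. The rule for named genes takes all 10 markers, up to 3 risen and 3 fallen genes with the smallest adjusted p in db/db against WT from each list, the PDGF and Notch ligands and Notch targets, close relatives of the markers, and the 5 nearest profiles of Rgs5 and Acta2. Abcc9, Kcnj8, Higd1b, Zic1, Tbx18, Myocd, Cnn1, Srf, Lrat and Gfap fall outside the rule and were named after their values were seen. A few genes meeting this rule are left unreported here.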

Additional observations from a re-analysis of the deposited data

How the results depend on the processing

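Over the 10 markers, 200 of 240 alternative values for db/db against WT and 223 of 240 for db/db against db/+ kept their direction and their side of the threshold. The count of markers higher against WT was 8 in the main test, 5 with the acinar covariate and 2 with the endothelial covariate, and against db/+ it was 8, 3 with the title letter and 4 with the endothelial covariate; with a library left out it ran from 6 to 10 and from 8 to 9. Over all tested genes the share called higher against WT was 21.8% in the main test, 11.6% with the acinar and 9.18% with the endothelial covariate, and against db/+ 20.6%, 5.98% with the title letter and 7.74% with the endothelial covariate. The count of markers lower in db/+ against WT, 0 in the main test, was 2 with no low-count filter and 1 each with DESeq2, with only the 2 groups compared, with the endothelial covariate and with the Y-linked covariate, and 0 to 1 with a library left out. With the endothelial covariate the log2 fold changes against WT turned to -1.13 for Pdgfra, -0.28 for Pdgfrb and -0.13 for Des, and against db/+ to -1.35 for Pdgfra and -0.50 for Des, with adjusted p from 0.268 to 0.853, and the cause was not tested. In db/+ against WT, where the markers' fold changes are small, signs turned with a library left out for Rgs5 (-0.115 to 0.053), Pdgfra (-1.01 to 1.08), Acta2 (-0.298 to 0.0029), Tagln (-0.387 to 0.247) and Myl9 (-0.212 to 0.399), and also for Pdgfra with the title letter (-0.25), the acinar covariate (-1.33) and the Y-linked covariate (-0.12), for Acta2 with the title letter (0.0026) and for Des with the acinar covariate (-0.0777). Depth limits Pdgfra most, with 3 to 156 counts per library. No paired analysis was possible because replicate numbers were given in accession order and carry no pairing.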
